A study of Mus musculus with 6 samples.

Results

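RNA bound to Argonaute 2 (Ago2), the core protein of the RNA-induced silencing complex (RISC), was sequenced from primary mouse satellite cells (MSC) that had been kept in differentiation medium for 30 h, transfected with 10 nM of a duplex RNA by the sample labels and kept in the same medium for another 16 h. Cells that received miR-222 duplex gave the miR-222-IPs, and cells that received a duplex against GFP, siGFP, gave the control-IPs. In experiment 1, replicates 1 and 2 of the control-IP stood beside replicate 1 of the miR-222-IP, and in experiment 2, control-IP replicates 3 and 4 stood beside miR-222-IP replicate 2. The numbers only name the libraries, as in control-IP 3, and the condition label of miR-222-IP 2 reads miR222 whereas its title reads miR22. The labels name no genotype for these primary cells, and they do not say whether libraries of an experiment came from separate cultures, so the spread between them may be technical.

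The 10 genes described here are Rbm24 and 9 further RNA-binding proteins that set muscle splicing, namely Rbm38, Mbnl1, Mbnl2, Celf1, Celf2, Rbfox2, Ptbp1, Qk and Fxr1. They were chosen by name. The study had already picked Rbm24 from these libraries, for overrepresentation in the miR-222-IPs and a predicted miR-222 site. The peaks of the genes are all those that overlapped an exon of the GENCODE M21 annotation on mm10 by at least 1 bp. A peak is a region in which a library was enriched past a −log10 p of 20, and its −log10 p is the value deposited for it. Peaks of 5 libraries were merged where they overlapped or touched, which gave 41363 intervals, of which 38946 were exonic and 66 lay over the 10 genes. All 10 genes had an exonic peak, against 46.9% of 21938 protein-coding genes. Control-IP 3 is given apart, because its peaks had a median width of 32103 bp, against 362 to 411 bp in the other libraries.

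Pre-mRNAs of muscle genes carry exons that are joined or skipped as myoblasts become myotubes. Rbm24 and the Mbnl, Celf, Rbfox, Ptbp and Quaking proteins bind short motifs in or beside such exons, and each can favour inclusion or skipping depending on where it sits. Several of them also bind 3′UTRs in the cytoplasm, and their own mRNAs can be bound there by microRNAs, which pair through the seed, the stretch at bases 2 to 8 of the microRNA.

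The sequences are shown because 3 matches to the miR-222 seed lay under peaks of these genes and they are the only ones that did. In the microRNAs (RefSeq) the capitals mark the seed, which miR-222-3p and miR-221-3p share. In the sites (mm10, read 5′ to 3′ on the strand of the gene, 30 bases each) the capitals mark the 7-mer that pairs with the seed.
mmu-miR-222-3p: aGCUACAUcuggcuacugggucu
mmu-miR-221-3p: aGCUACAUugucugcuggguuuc
Rbm24, 3′UTR, 7-mer at chr13:46429723-46429729, plus strand: ggagtgagcaatATGTAGCttgaattacgc
Rbm24, 3′UTR, 7-mer followed by A at chr13:46430537-46430543, plus strand: cagtaggtctagATGTAGCatattaaatat
Rbfox2, 3′UTR, 7-mer at chr15:77080933-77080939, minus strand: ctgtacctagtcATGTAGCttccagacact
Qk, 3′UTR, 7-mer followed by A at chr17:10208630-10208636, minus strand, under no peak of the 5 libraries: atatttttggaaATGTAGCattttatactt

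The exons of the 10 genes held 6 such 7-mers. Apart from the 4 shown, 2 lay in exons of non-coding Mbnl1 transcripts and were under no peak. Mbnl2, Celf1, Celf2, Ptbp1, Fxr1 and Rbm38 had no 7-mer in any annotated exon. Of the 66 intervals, 2 (3.03%) held the 7-mer, against 2.51% of the 37545 exonic intervals whose genes all lie on the same strand, searched on that strand.

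Peaks numbered 10579, 20000 and 17892 for control-IPs 1, 2 and 4, and 21074 and 37762 for miR-222-IPs 1 and 2. The number of reads behind each list is not given in the sources used here, so no counting interval can be given. A −log10 p grows with depth as well as with enrichment, so unscaled values of different libraries also carry their difference in depth. Values are set side by side for one gene and are not compared between genes, apart from the search for the genes most like Rbm24. A library without a peak has no listed enrichment past the threshold, which does not show that the RNA was absent. No library of input RNA was used here, so more RNA in the cells and more RNA on Ago2 cannot be told apart, nor can more cells of a type and more RNA per cell. Differentiating muscle markers had peaks in every library, whereas Pax7 and Myf5, which mark satellite cells and myoblasts, and Adipoq and Plin1, which mark fat cells, had none. Of 5 fibroblast markers 0 to 3 had a peak in a library, and of 3 endothelial markers 1 or 2 did. The 3 immune markers had peaks with values from 69.0 to 235.8 in all 5 libraries, with only 2 of the 3 called in control-IP 1.

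MiR-222-IP 2 stood apart from the other libraries. Of 13 markers of differentiating muscle, 12 had their highest −log10 p there, and all 13 had a peak there against 9 to 11 in the other 4 libraries. The summed −log10 p of the list was 1823 in that library and 486.2 to 690.5 in the others. For 27 other splicing regulators, described below, the sum was 1851 in miR-222-IP 2 and 599.3 to 1178 in the others. MiR-222-IP 2 had the longest list and called 92.3% of all exonic intervals, against 25.4% to 51.8% in the other 4 libraries. It also gave the highest value of 73.3% of the 10286 protein-coding genes with an exonic peak and of 7 of the 10 splicing regulators. Results that rest on that library are therefore also given without it.

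**Figure D1:**
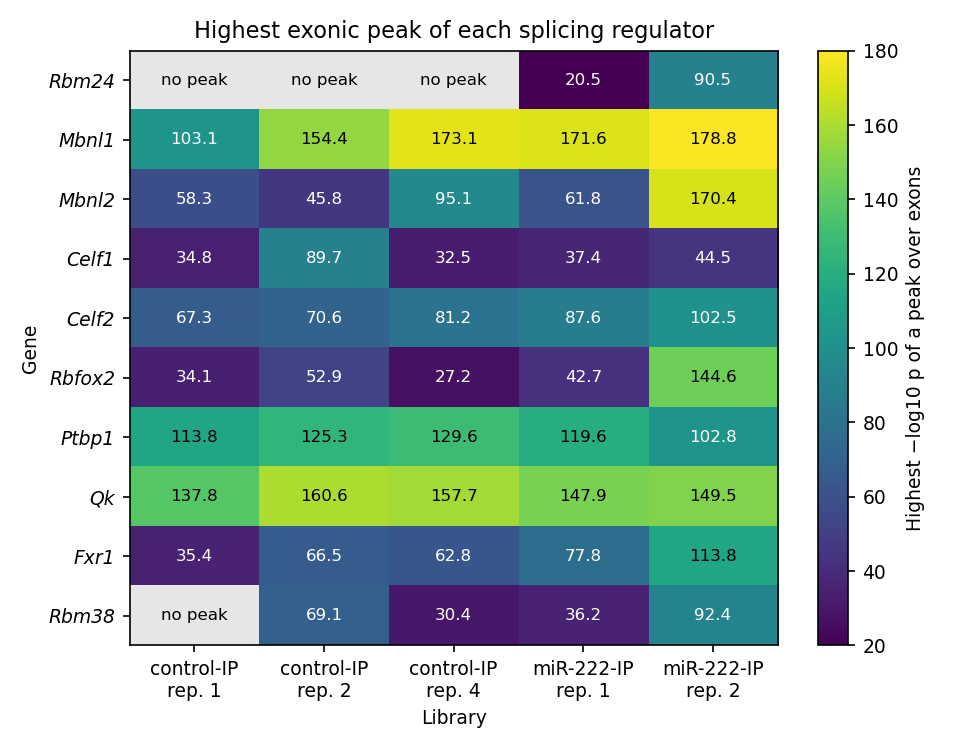
Highest −log10 p (colour and printed value) of any exonic peak of each of the 10 genes (rows) in each of 5 libraries (columns), with grey for no peak. Rbm24 had peaks in the miR-222-IPs alone, at 20.5 and 90.5, and Rbm38 lacked a peak in control-IP 1, whereas the other 8 genes had peaks in all 5 libraries.

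Rbm24, an RNA-binding protein that promotes the inclusion of muscle exons, had a single interval, at chr13:46429313-46431027 in exon 4, the last exon of Rbm24-201, with 1710 of its 1715 bases in the 3′UTR. Its −log10 p was 20.5 in miR-222-IP 1 and 90.5 in miR-222-IP 2, and there was no peak in control-IPs 1, 2 and 4. Both miR-222-IPs thus had a peak and none of these 3 control-IPs did, but the value of miR-222-IP 1 lay just above the threshold of 20, at percentile 2.28 of its own list, whereas that of miR-222-IP 2 lay at percentile 86.2. Among the 10286 protein-coding genes with an exonic peak, 3.12% (321 genes) had peaks in both miR-222-IPs and in no control-IP, and Rbm24 was the only one of the 10 regulators that did. The study picked Rbm24 as overrepresented in the miR-222-IPs of these same libraries, so the pattern is not independent of that choice.

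The peaks of both miR-222-IPs covered both seed matches of Rbm24, which begin 405 and 1219 bases from the first base of its 3′UTR. The peak of miR-222-IP 1 was 1433 bp wide and that of replicate 2 was 1715 bp wide, so neither points to a single site. With only peaks over a −log10 p of 50, or with the 10579 highest peaks of each library, 1 library had a peak over the sites. Without miR-222-IP 2 the single value left was the 20.5 of replicate 1. In control-IP 3 a peak 12545 bp wide with a −log10 p of 131.9 spanned 99.1% of the gene, so that a control library was enriched over the gene too, without placing it on the 3′UTR. The muscle markers that stood high in miR-222-IP 2 moved with the Rbm24 value, and their part in it was not tested.

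**Figure D2:**
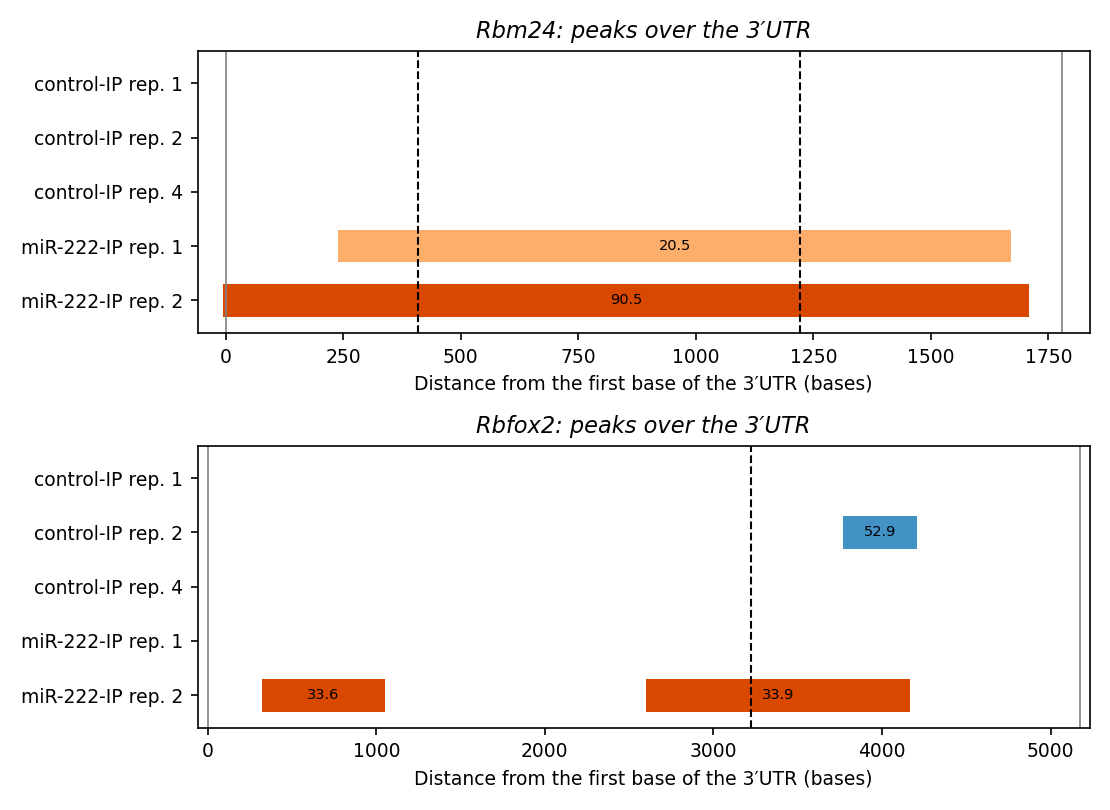
Peaks (bars, with their −log10 p) of 5 libraries along the 3′UTRs of Rbm24 and Rbfox2, by distance in bases from the first base of the 3′UTR (grey lines mark its ends, dashed lines the miR-222 seed matches). Both Rbm24 matches lay under the peaks of both miR-222-IPs, at 20.5 and 90.5, and the Rbfox2 match lay under the 33.9 peak of miR-222-IP 2, while the 52.9 peak of control-IP 2 lay beside it.

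Rbm38, the closest relative of Rbm24 among the 10 genes and likewise a factor that binds GU-rich RNA, had 3 intervals, which lay in exons 2 and 3 and in the last exon of Rbm38-204. The 3′UTR interval at chr2:173033431-173034366 had a −log10 p of 69.1 in control-IP 2, 30.4 in control-IP 4, 36.2 in miR-222-IP 1 and 84.3 in miR-222-IP 2, and no peak in control-IP 1. The miR-222-IPs and control-IPs overlapped in these values. Its highest interval, in exon 2 at chr2:173021977-173022388, reached 92.4 in miR-222-IP 2, against 29.1 in miR-222-IP 1 and 24.7 in control-IP 2, and had no peak in control-IPs 1 and 4. The exon 3 interval shared bases with the exons of Gm20490, and the 3′UTR interval with those of Gm14453, and the peaks carry no strand.

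Mbnl1, the muscleblind protein whose sequestration by CUG repeats underlies myotonic dystrophy, had 9 intervals, 7 of them with a peak in all 5 libraries. They covered the 5′UTR, coding exons 3 to 6 and the 3′UTR in exon 10 of Mbnl1-201. The highest, in the 5′UTR at chr3:60528665-60529896, had a −log10 p of 98.8, 154.4 and 173.1 in control-IPs 1, 2 and 4, and of 154.8 and 178.8 in miR-222-IPs 1 and 2. The 2 groups overlapped there. The 3′UTR interval at chr3:60626367-60627263 had 92.4, 119.2 and 107.7 in the control-IPs and 99.7 and 76.5 in the miR-222-IPs. After scaling between libraries by the median of ratios, both miR-222-IPs lay below the control-IPs of their experiment over that interval, with a log2 ratio of −0.43 in experiment 1 and −1.09 in experiment 2, which was not so in both experiments for the unscaled values. All 7 of the Mbnl1 intervals had a scaled log2 ratio between −1.09 and −0.45 in experiment 2, and between −0.43 and 0.73 in experiment 1, whereas unscaled values of 4 of the 7 were higher in miR-222-IP 2 than in control-IP 4. An eighth interval had a peak in control-IP 2 alone, and the ninth, called in control-IP 4 and both miR-222-IPs, lay over a 5′UTR exon that is not part of Mbnl1-201.

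Mbnl2, the second muscleblind protein of muscle, had 7 intervals, all of them called in miR-222-IP 2, which called 92.3% of all exonic intervals. Its highest interval, in the 5′UTR at chr14:120324717-120325440, had a −log10 p of 58.3, 41.2 and 95.1 in control-IPs 1, 2 and 4, and of 61.8 and 170.4 in miR-222-IPs 1 and 2. MiR-222-IP 1 thus lay within the range of the control-IPs, and miR-222-IP 2 lay above it. In the 3′UTR, exon 9 of Mbnl2-201, the interval at chr14:120430281-120431542 had a peak in both miR-222-IPs, at 22.6 and 45.2, and in no control-IP of the 5 libraries. The neighbouring 3′UTR interval at chr14:120428981-120429949 had peaks in all 5, at 22.0, 44.0 and 36.8 in the control-IPs and 23.3 and 72.8 in the miR-222-IPs, with scaled log2 ratios of −0.77 in experiment 1 and 0.39 in experiment 2. In control-IP 3 a peak with a −log10 p of 190.1 spanned 99.9% of Mbnl2, all 7 intervals included.

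Celf1 and Celf2 bind GU-rich RNA, and in developing muscle they act against the muscleblind proteins on many exons. Celf1 had 5 intervals, of which 4 (coding exons 2, 5 and 7 and an earlier stretch of the 3′UTR) were called in miR-222-IP 2 alone at values from 23.4 to 33.7. The fifth, in the 3′UTR at chr2:91016729-91017380, was its highest, with a −log10 p of 34.8, 89.7 and 32.5 in control-IPs 1, 2 and 4, and of 37.4 and 44.5 in miR-222-IPs 1 and 2. Control-IP 2 stood well above the other 4 libraries. The scaled log2 ratio was −0.93 in experiment 1 and −0.14 in experiment 2, where the unscaled value was higher in the miR-222-IP.

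Celf2 had 13 intervals, the most of the 10 genes, of which 11 lay over coding exons and 2 over the 3′UTR. All 13 were called in miR-222-IP 2 and 11 in replicate 1, against 3, 7 and 9 peaks over its exons in control-IPs 1, 2 and 4. Of all exonic intervals, miR-222-IPs 1 and 2 called 51.8% and 92.3%, and control-IPs 1, 2 and 4 called 25.4%, 47.0% and 43.8%. Its highest interval, over coding exon 10 of Celf2-211 at chr2:6553683-6554086, had a −log10 p of 37.0, 70.6 and 55.8 in the control-IPs and of 72.9 and 102.5 in the miR-222-IPs. Both miR-222-IPs had higher deposited values than any of these control-IPs, but after scaling miR-222-IP 1 lay between its 2 control-IPs. The intervals at chr2:6541887-6542787 in the 3′UTR, at 21.03 and 23.2, and at chr2:6663995-6664313 over coding exon 2, at 22.1 and 35.1, had peaks in both miR-222-IPs and in no control-IP. Of these 4 values, 3 lay within 4 units of the threshold.

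Rbfox2 binds the motif UGCAUG beside regulated exons and is needed for myoblast fusion. It had 5 intervals, 3 of them called in miR-222-IP 2 alone. Over coding exon 3 of Rbfox2-204, at chr15:77132638-77133057, the −log10 p was 34.1, 29.3 and 27.2 in control-IPs 1, 2 and 4, and 42.7 and 144.6 in miR-222-IPs 1 and 2. MiR-222-IP 2 stood far above the other 4 libraries, and both miR-222-IPs were above all 3 control-IPs before scaling. The scaled log2 ratio was 0.08 in experiment 1 and 1.82 in experiment 2, so the difference rests on miR-222-IP 2. The 3′UTR interval with the seed match, chr15:77079955-77081563, had a peak of 33.9 in miR-222-IP 2, which covered the match, and a peak of 52.9 in control-IP 2, which did not, and none in the other 3 libraries. A peak 83769 bp wide in control-IP 3, with a −log10 p of 54.4, covered the match as well.

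Ptbp1, a repressor of muscle and neuronal exons that is lowered as myoblasts differentiate, had 4 intervals, and 2 of them had a peak in all 5 libraries. The highest, at chr10:79863049-79864350 over exons 13 and 14 with its 3′UTR, had a −log10 p of 113.8, 125.3 and 129.6 in control-IPs 1, 2 and 4, and of 119.6 and 102.8 in the miR-222-IPs. After scaling, both miR-222-IPs lay below the control-IPs of their experiment, with log2 ratios of −0.35 and −0.93, but before it miR-222-IP 1 lay between its control-IPs. Over exons 4 to 7, at chr10:79858937-79859992, the values were 33.4, 26.1 and 92.2 in the control-IPs and 85.9 and 98.1 in the miR-222-IPs, which gave scaled log2 ratios of 1.19 in experiment 1 and −0.50 in experiment 2. Control-IP 4 thus lay with the miR-222-IPs and apart from the control-IPs of experiment 1. All but 1 of the 4 intervals shared bases with exons of another gene (Plppr3, Mir6910 or Gm17134).

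Qk encodes Quaking, which binds ACUAA elements and drives splicing in muscle. It had 8 intervals, and 5 coding intervals over exons 1, 2, 3, 4 and 6 of Qk-204 had a peak in all 5 libraries. The highest, over exon 4 at chr17:10238769-10239159, had a −log10 p of 137.8, 160.6 and 157.7 in control-IPs 1, 2 and 4, and of 147.9 and 124.3 in the miR-222-IPs. The 3 Qk intervals over exons 3, 4 and 6 had both miR-222-IPs below the control-IPs of their experiment after scaling, with mean log2 ratios from −0.67 to −0.65, and without scaling miR-222-IP 1 lay within or above the range of its control-IPs in all 3. All 3 Qk intervals in the 3′UTR lacked a peak in miR-222-IP 2, which called 92.3% of all exonic intervals. Of the 3, chr17:10207730-10208079 was called in control-IP 2 alone, and chr17:10214571-10215506 in control-IP 2 and miR-222-IP 1. The widest of them, at chr17:10211201-10214174, had 37.0, 33.3 and 40.3 in the control-IPs and 27.9 in miR-222-IP 1. Peaks covered 952 bases of Qk exons in miR-222-IP 2, against 2640 to 4694 in the other 4 libraries, although that library had the longest list. The Qk seed match shown above lay under none of these peaks.

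Fxr1, an RNA-binding protein of the fragile X family with its own muscle-specific exons, had 11 intervals and, at 1.68 for each kilobase of annotated exon, the most per length of the 10 genes, whose values ran down to 0.286 for Rbm24. MiR-222-IP 2 alone called 7 of them, at values from 22.0 to 48.5, so the rank of Fxr1 rests on that library. Rbm38 and Ptbp1 had no interval called by miR-222-IP 2 alone. Without those 7 intervals Fxr1 had fewer per length than either of these genes. The last interval, over exon 17 and the 3′UTR at chr3:34068817-34069306, had a −log10 p of 35.4, 34.8 and 56.5 in control-IPs 1, 2 and 4, and of 77.8 and 113.8 in the miR-222-IPs. Both miR-222-IPs were above all 3 control-IPs before scaling and above the control-IPs of their experiment after it, with log2 ratios of 0.79 and 0.42, though not when scaled to the summed −log10 p. The interval over exon 14, at chr3:34064034-34064412, had 32.3, 66.5 and 62.8 in the control-IPs and 69.5 and 89.4 in the miR-222-IPs, with scaled log2 ratios of 0.23 and −0.08. Over exon 15, at chr3:34064839-34065574, the interval held only 81 exonic bases of 736 and was called in miR-222-IP 2 alone, at 34.1.

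**Figure D3:**
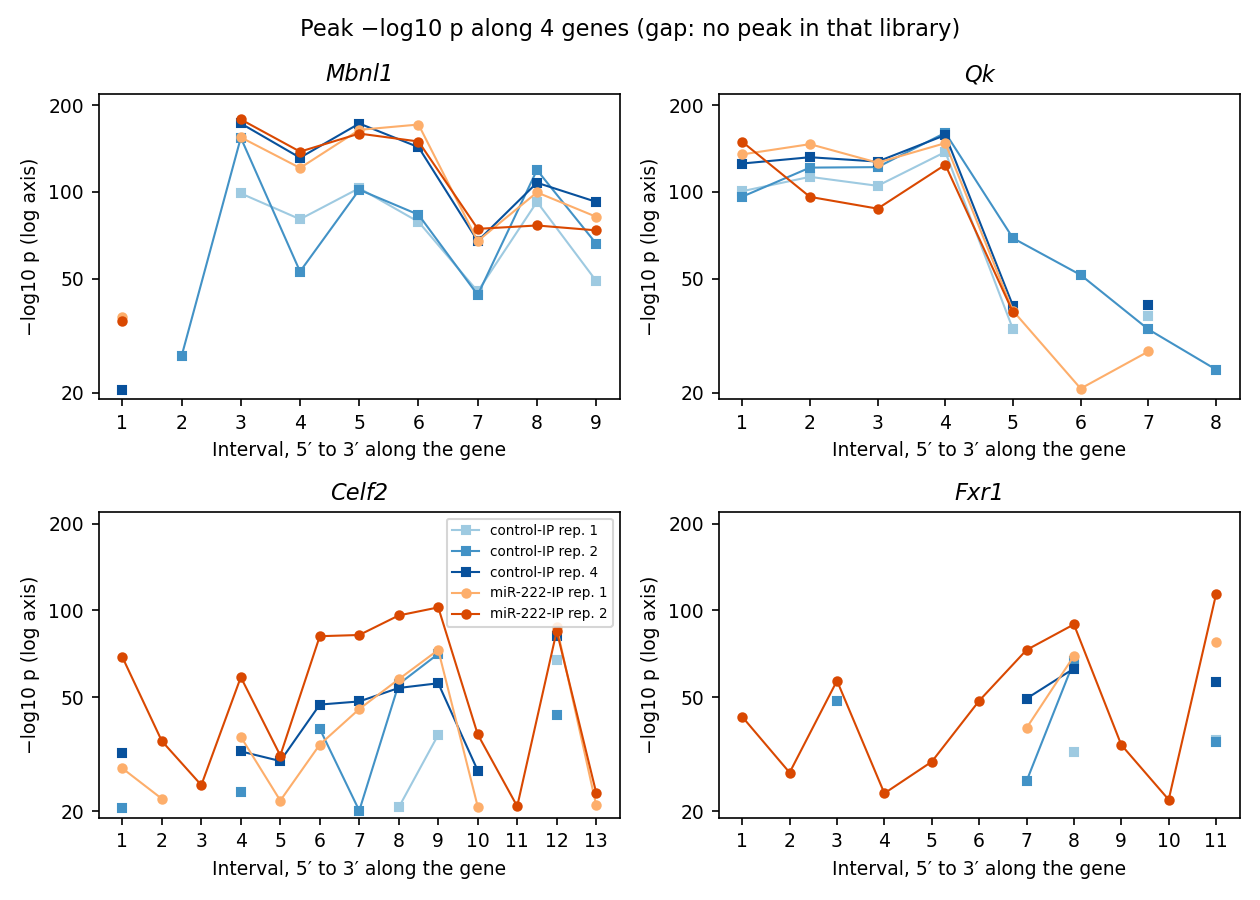
Peak −log10 p (log axis) of each merged interval of Mbnl1, Qk, Celf2 and Fxr1, numbered from 5′ to 3′ along the gene, in 3 control-IPs (blue squares) and 2 miR-222-IPs (orange circles), with a gap where a library had no peak. MiR-222-IP 2 alone called 7 of the 11 Fxr1 intervals, and at the 3′ end of Qk it called none of the 3 intervals. Control-IPs 1 and 4 called only the widest of those 3.

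Over the 10 genes together, 42 intervals lay mostly over coding bases, 18 over 3′UTRs and 6 over 5′UTRs, which is 63.6%, 27.3% and 9.09% of them, against 69.9%, 24.9% and 4.69% of the 36675 exonic intervals of all protein-coding genes. Intervals of 3′UTRs were 953 bp wide at the median, against 786 bp for all, and lay wholly in exons at the median. Coding intervals were narrower, with a median of 381 bp, against 339 bp for all, and 202 exonic bases at the median. Of the 66 intervals, 9 shared bases with an exon of another gene.

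In all 5 libraries a peak was called over 23 of the 66 intervals (34.8%), against 19.8% of all exonic intervals. Both miR-222-IPs and no control-IP called 4 (6.06%), against 6.54% of all, and these were the Rbm24 interval, 1 of Mbnl2 and 2 of Celf2. MiR-222-IP 2 alone called 16 (24.2%), against 30.9%, and control-IPs alone called 2 (3.03%), against 6.14%. The 16 were 7 of Fxr1, 4 of Celf1, 3 of Rbfox2 and 2 of Celf2. The share called by both miR-222-IPs and no control-IP was thus near that of all exonic intervals. With the lists made equally long there were 40 intervals over the genes, of which 0 had that pattern, against 1.35% of all 16793 exonic intervals, and 3 were called in miR-222-IP 2 alone, against 5.78%.

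**Figure D4:**
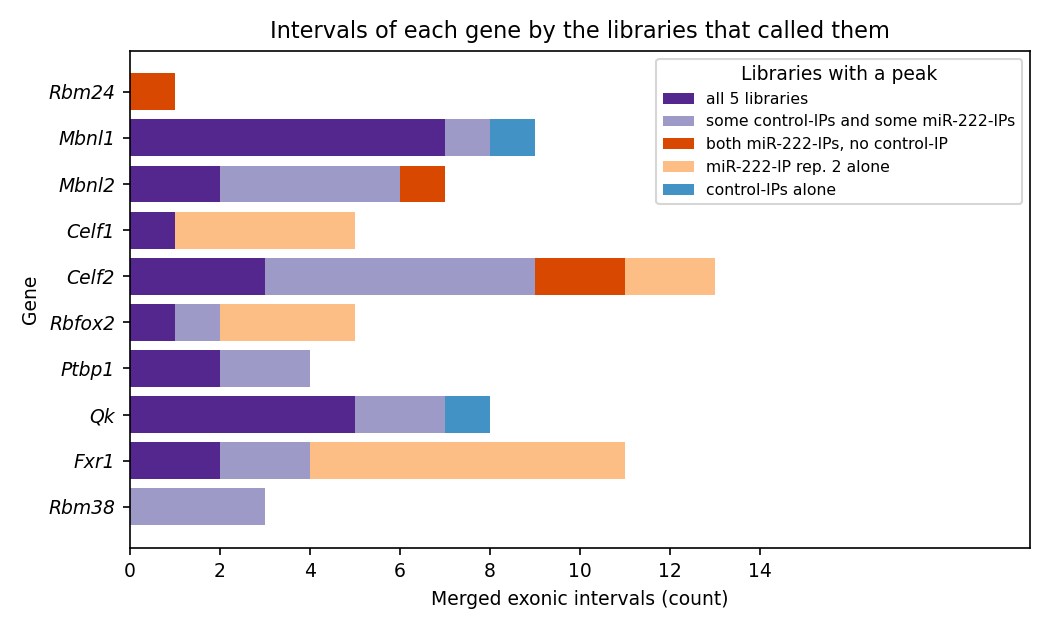
Number of merged exonic intervals of each gene (bar length), coloured by which of 5 libraries had a peak. Mbnl1 and Qk had 7 and 5 intervals with a peak in all 5 libraries, whereas 7 of the 11 Fxr1 intervals and 4 of the 5 Celf1 intervals were called by miR-222-IP 2 alone.

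Whether miR-222-IPs and control-IPs differed in −log10 p was asked of the 23 intervals that all 5 libraries called. With values scaled by the median of ratios, and on the log2 scale, the mean over the control-IPs of an experiment was taken from its miR-222-IP, and the 2 experiments were averaged. The median log2 ratio was −0.12 over these intervals, with a range from −0.76 to 0.95, and 0.03 over all 7698 exonic intervals with a peak in all 5, whose 5th and 95th percentiles were −0.57 and 0.65. The 2 experiments differed, with medians of 0.10 in experiment 1 and −0.52 in experiment 2. The median turned positive, to 0.11 without control-IP 4 and 0.09 without miR-222-IP 2. Mbnl1 gave 7 of the 23 intervals and Qk 5, and all of these were negative in experiment 2, so the median rests largely on these genes. Rbm24 and Rbm38 gave none. By gene, the median ratio was positive for Celf2, Fxr1 and Rbfox2, and negative for Mbnl1, Mbnl2, Celf1, Ptbp1 and Qk. Permuting labels within experiments exactly has 6 arrangements and cannot give a p below 0.167, so no interval could pass a threshold of 0.05, and the smallest adjusted value over all 7698 intervals was 0.976.

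Both miR-222-IPs lay above the control-IPs of their experiment in 1 of the 23 intervals, against 17.6% of all 7698, and below them in 6, against 18.0%. The 1 above was the last Fxr1 interval, and the 6 below were 3 of Qk and 1 each of Mbnl1, Celf1 and Ptbp1. These directions depend on the scaling. Without scaling 13 of the 23 lay above and 0 below, against 50.4% and 2.57% of all 7698. With scaling to the summed −log10 p 0 lay above and 9 below, against 1.71% and 36.6% of all. The median ratio of all exonic intervals moved to 0.50 without scaling and to −0.39 with the sum, and the median of the members was lower by 0.15 under each of the 3 scalings, which follows from their construction. By percentiles of each list there were 8 above and 0 below, against 47.7% and 2.69% of all. Leaving out 1 library at a time left 23 to 31 intervals with a peak in every library used, and gave 3 to 7 above, against 24.96% to 50.9% of all, and 7 to 17 below, against 24.6% to 49.1%, with the most below, 17, without miR-222-IP 1, when 1 miR-222-IP and 1 control-IP were left to compare.

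**Figure D5:**
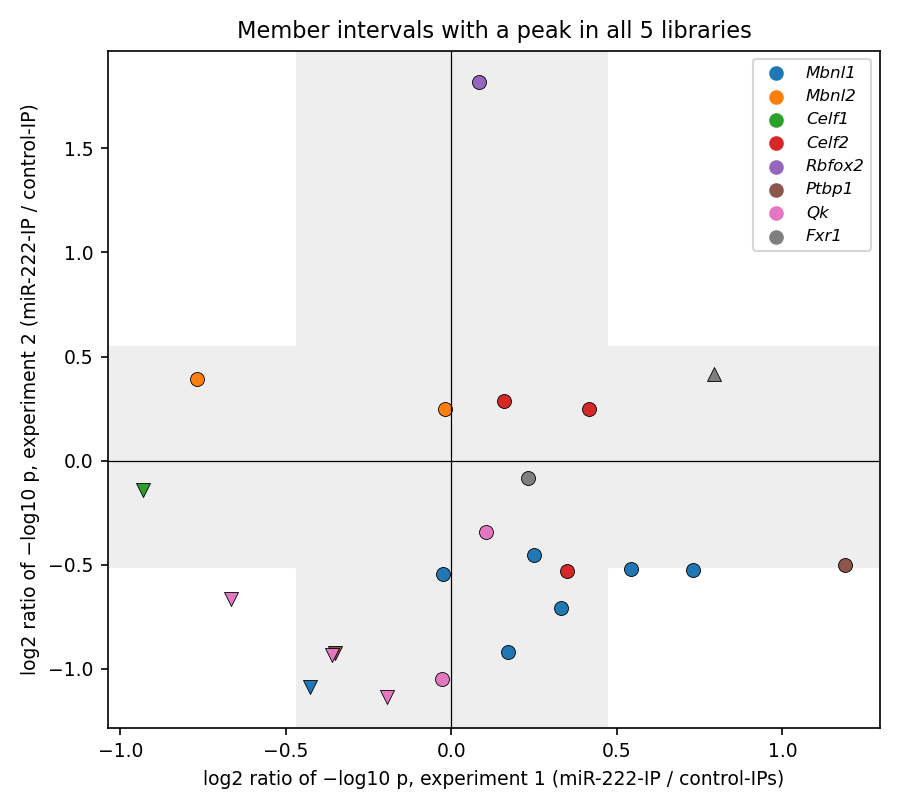
Scaled log2 ratio of −log10 p in experiment 1 (x axis) and experiment 2 (y axis) for the 23 intervals that all 5 libraries called, coloured by gene, with grey bands for the median ± 1 SD of all 7698 exonic intervals. Triangles mark the intervals beyond the control-IPs in both experiments, 6 pointing down for lower and 1 pointing up for higher (13 higher and 0 lower without scaling, against 50.4% and 2.57% of all, and 0 and 9 with scaling to the sum, against 1.71% and 36.6%), and the Rbfox2 interval stands at 1.82 in experiment 2.

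Peaks over the 10 genes made up 0.249%, 0.243% and 0.225% of the exonic peaks of control-IPs 1, 2 and 4, and 0.211% and 0.172% of those of miR-222-IPs 1 and 2. Both miR-222-IPs lay below all 3 control-IPs, with differences of −0.035 points in experiment 1 and −0.053 points in experiment 2. The exact permutation test within experiments gave p = 0.167, two-sided, which is the smallest it can give. With the same number of peaks taken from each library the mean difference was 0.0030 points, with the miR-222-IPs higher, and the length of the lists moved with the difference.

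Binding motifs of the same proteins were searched in the 66 intervals on the strand of the gene, written as DNA. Whole intervals were searched, bases outside exons included. Coding intervals were 57.8% exonic at the median, so a match may lie in an intron. The muscleblind motif TGCTGC was present in 28 intervals (42.4%), against 24.0% of all exonic intervals, and GCTTGC in 13 (19.7%), against 11.6%. The Quaking motif ACTAA was present in 25 intervals (37.9%), against 26.0%, and the Rbfox motif TGCATG in 11 (16.7%), against 13.9%. GTGTG, which Rbm24 and Rbm38 bind, was present in 31 (47.0%), against 49.1%, the overlapping Celf motif TGTGT in 33 of the 66, against 55.2%, and the Ptbp motif TCTTC in 37 (56.1%), against 54.4%. Since wider intervals hold more matches, a fixed window was searched too, and within 300 bases around the middle of each interval TGCTGC was present in 22.7%, against 15.8% of all, GCTTGC in 16.7%, against 7.002%, and ACTAA in 24.2%, against 16.2%. In that window TGCATG was present in 7.58%, against 8.22%, GTGTG in 34.8%, against 35.4%, TGTGT in 33.3%, against 40.7%, and TCTTC in 39.4%, against 40.8%. A match is a string of letters and not a binding site.

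Seed matches of other microRNAs of muscle and of broadly present microRNAs were searched alike. The miR-206 7-mer ACATTCC was present in 2 intervals (3.03%), of Mbnl2 and Qk, against 3.44% of all, and the miR-133b 7-mer GGACCAA in 1 interval (1.52%), of Ptbp1, against 3.25%. The 7-mer of miR-23a, AATGTGA, was present in 5 intervals (7.58%), against 5.56% of all, that of miR-30a, TGTTTAC, in 2 (3.03%), against 4.39%, and that of let-7a, CTACCTC, in 1 (1.52%), against 3.62%. In the 300-base window the miR-23a 7-mer was present in 1.52%, against 3.12% of all, so its higher share was not kept there. That of miR-206 was in 1.52%, against 1.94%, and that of let-7a in 1.52%, against 2.05%. Those of miR-133b and miR-30a were in 0, against 1.82% and 2.30%.

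Other regulators of splicing were taken from a list of 27 genes, of which 23 had an exonic peak, against 46.9% of 21938 protein-coding genes. Of the 23, 9 had one in all 5 libraries. Rbfox3 was the only one of them with peaks in both miR-222-IPs, at 29.0 and 20.5, and in no control-IP. That pattern was found in 3.12% of the 10286 protein-coding genes with an exonic peak. In miR-222-IP 2 alone, 3 genes of the list had a peak. Mbnl3, Celf6, Rbm4b and Esrp1 had no exonic peak. Of 22 genes whose exons are spliced differently in muscle, 20 had a peak, 13 of them in all 5 libraries, and 0 had peaks in both miR-222-IPs and in no control-IP. Shares of all genes with a peak in all 5 libraries, or in miR-222-IP 2 alone, are not given here, so those list counts have no background. Coro6, an actin-binding coronin, had 49.8, 44.0 and 25.9 in control-IPs 1, 2 and 4, and 43.6 and 163.5 in miR-222-IPs 1 and 2. For Naca, the alpha chain of the nascent polypeptide-associated complex, the values were 30.0, 24.9 and 31.9 in the control-IPs and 50.5 and 44.2 in the miR-222-IPs. Both deposited values of Naca in miR-222-IPs were higher than those in the 3 control-IPs, and those of Coro6 overlapped. Without scaling, both miR-222-IPs lay above the control-IPs of their experiment in 50.4% of all 7698 exonic intervals with a peak in all 5. Divided by the scaling factors of 1.49 and 0.989, the Naca value of miR-222-IP 2 lies below that of control-IP 4.

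The genes with −log10 p values most like those of Rbm24 over the 5 libraries, with a missing peak set to 20, were Ccdc141, Ahnak2, Lmna, Cav3 and Xirp1, at log2 distances of 0.035 to 0.054. Each had a peak in miR-222-IP 2 alone, at values between 87.9 and 92.4, and the measure barely counts the 20.5 of Rbm24 in miR-222-IP 1. Among the other 9 members Rbm38 and Rbfox2 were nearest, at distances of 2.06 and 2.09, which ranked 5349 and 5447 of 10285 genes.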

How the data were processed

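The authors aligned reads to mm10 with SOAPSplice and ran macs2, with its default settings, on every library. Their peak p-values are deposited as −log10 p, with a threshold of 20 applied by the authors. The macs2 version and control track are not given in the sources used here. The labels give 10 nM of duplex, which the study's methods put higher. Amplification with the Ovation kit leaves the peaks without strand.

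Members, gene lists, motifs and tests were chosen with earlier results of these data known. Peaks of 5 libraries were merged in Python 3.11.15 (numpy 2.4.6, pandas 2.3.3, figures with matplotlib 3.10.9). An interval takes the highest −log10 p of a library's peaks in it, and its part is the class with most of its exonic bases in any protein-coding transcript of GENCODE M21. A base can count in more than 1 class. The Fxr1 interval over exon 5 of Fxr1-201 thus counted as 3′UTR, with 165 such bases against 149 coding bases. Exon numbers follow 1 reference transcript for each gene. Control-IP 3 was left apart because of its wide peaks. Scaling divided each library by the median of ratios (factors 0.706 to 1.49). Ratios were formed within each experiment and averaged with equal weight, in place of the study's fit of read counts on condition and experiment. Differential counts could not be tested without read counts. Calculations were tested on simulated data.

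Named are all 10 genes, their highest interval, each interval with the 7-mer, called in both miR-222-IPs and no control-IP, or beyond the control-IPs in both experiments, and the 5 nearest genes to Rbm24. Other intervals and list genes were named after their values were seen. The alternatives covered threshold, exon overlap, merging distance, list length, scaling, experiment block, seed length, search window and omission of each library. Added after seeing the data were percentiles, the number of libraries over the Rbm24 sites, the alternatives of single ratios, the omission of libraries for the share of exonic peaks and the merging distance for the number of genes. Sequences came from GRCm38 and RefSeq, and entries for miR-1a, miR-133a and miR-23b were not used here.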

Additional observations from a re-analysis of the deposited data

Results flagged for a closer look

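The 4 control-IPs were compared in 6 quantities, and control-IP 3 lay far from the other 3 in 2 of them, its median −log10 p of 68.6 and its median peak width of 32103 bp. Chance sets about 1 in 20 such groups apart. Its list held 3619 peaks, of which 2771 were wider than 5000 bp, and it had no peak on the chromosomes of Mbnl1, Celf1, Celf2, Fxr1 and Rbm38. On the chromosome of Qk it had 326 peaks and none over Qk exons.

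In 6 intervals the miR-222-IP lay outside the range of the control-IPs in opposite directions in the 2 experiments, that is 6 of 23, against 23.5% of all 7698 exonic intervals with a peak in all 5 libraries. In 4 Mbnl1 intervals it was higher in experiment 1 and lower in experiment 2, where the log2 ratio was −0.52 over exon 3, −0.71 over exon 4, −0.53 over exon 5 and −0.92 over the far end of the 3′UTR. In the Ptbp1 interval over exons 4 to 7 it was likewise lower in experiment 2, at −0.50. The first Mbnl2 interval of the 3′UTR went the other way, at 0.39 in experiment 2. The difference between experiments was not tested, since experiment 2 had 1 control-IP and 1 miR-222-IP of normal peak width.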

How the results depend on the processing

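All 10 genes had an exonic peak under the 10 alternatives tried. With only peaks of a −log10 p over 50 there were 37 intervals, of which 1 held the 7-mer, 0 were called in both miR-222-IPs and no control-IP (5.47% of all exonic intervals), and of the 10 in all 5 libraries 0 lay above and 3 below the control-IPs in both experiments (21.01% and 20.2% of all), and the difference in shares was −0.098 points. At an equal number of peaks there were 40 intervals, 1 with the 7-mer, 0 called in both miR-222-IPs and no control-IP (1.35% of all), 3 in miR-222-IP 2 alone (5.78%), and a difference of 0.0030 points, of opposite sign. With all 6 libraries 2 were called in both miR-222-IPs and no control-IP (5.63% of all), and of the 3 called in all 6, 0 lay above and 1 below (7.54% and 13.3%). The 2 were those of Celf2, on a chromosome where control-IP 3 had 0 peaks, whereas its wide peaks covered the Rbm24 and Mbnl2 intervals. The 6-mer was in 5 intervals and the 7-mer followed by A in 1. In a window of 300 bases in all, centred on the middle of each interval, the 7-mer was in 0, against 1.26% of all. Without scaling 13 lay above and 0 below, against 50.4% and 2.57% of all exonic intervals, and the median was 0.35. With the sum 0 lay above, against 1.71%, and by percentiles 8 lay above and 0 below, against 47.7% and 2.69%. Leaving out 1 library gave 1 to 2 intervals with the 7-mer, 4 to 20 called in the remaining miR-222-IPs and no control-IP, against 7.23% to 37.8% of all (20 without miR-222-IP 1, when 1 miR-222-IP was left), 3 to 7 above, 7 to 17 below. Without the experiment block there were 1 above, 5 below (10.9% and 12.9% of all) and a median of −0.10, close to the values with it. Other causes than fewer peaks, fewer libraries and the scaling itself were not tested. The main limits are the unknown depth of each library, the lone normal control-IP of experiment 2 and a test that cannot reach 0.05.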
